A study of Mus musculus with 12 samples.

Results

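The endoplasmic reticulum (ER) folding and unfolded protein response (UPR) genes described here were given by name, for their known roles, as 42 gene symbols, which name 41 distinct genes because Ero1l is an older symbol of Ero1a. They were looked up in the array annotation, and 39 of them were measured among the 17097 genes of the arrays. Sec61g and Serp1 were not analysed here. Each gene was represented by the probe set that names it alone and has the highest mean over the 12 arrays, a rule that does not use the groups. All 39 entered the tests given here, which used no filter on dim genes.

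The arrays held RNA of primary mouse embryonic fibroblasts (MEFs) from C57Bl/6 x 129Sv F1 embryos at e14.5, with 3 arrays in each of 4 groups. The CBP/p300 null cells, called dKO, were lines 1, 5 and 6 of MEFs homozygous for conditional alleles of both acetyltransferase genes, and the wild-type (WT) cells were lines 3, 4 and 5. MEFs of both genotypes, at passage 4, were infected for 16 h with adenovirus expressing Cre recombinase (multiplicity of infection, 100), so the WT cells carried the virus too. Infection and the following 48 h took place in 3% oxygen, and 24 h of normoxia came before treatment. The groups were dKO with 100 µM dipyridyl (DP), dKO with ethanol vehicle, WT with DP and WT with ethanol, each for 3 h. The same numbered line of a genotype received both treatments, and a number shared by the genotypes does not mark a shared embryo. DP is an iron chelator that blocks iron-dependent hydroxylases, including those that mark HIF for destruction, and is used to imitate low oxygen.

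Proteins that enter the secretory pathway are threaded into the ER through the Sec61 channel, folded by chaperones such as BiP (Hspa5) and by disulfide isomerases, and leave in COPII vesicles, while failed products are sent back to the cytosol for degradation (ERAD). When unfolded protein accumulates, the membrane sensors IRE1 (Ern1), PERK (Eif2ak3) and ATF6 start the UPR. IRE1 splices the mRNA of Xbp1 and ATF6 is cut to release a transcription factor, and both routes raise chaperone and ERAD genes through ER stress response elements in promoters. Fibroblasts secrete large amounts of collagen and depend on this machinery. CBP and p300 are coactivators that acetylate histones and bind many factors, HIF among them.

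Promoter windows from 250 bases before to 50 bases after a start site, called the gene start here, were held by RefSeq (GRCm38.p6) for 33 of the 39 genes. Derl2 and Sec23b had 2 windows each. On both strands 4 motifs were searched. The ER stress response element (ERSE) is CCAAT and CCACG with 9 bases between them, ERSE-II is ATTGG and CCACG with 1 base between them, the UPRE-like motif is TGACGTGG, and the core of the hypoxia response element bound by HIF (HRE core) is ACGTG. The UPRE-like motif contains the HRE core, and an ERSE-II can overlap it. The windows below are those of Hspa5, the marker gene of the response, of Ero1a, which responded to DP, of 3 ERSE genes that differed between genotypes (Pdia6, Ero1b and Syvn1), and of Herpud1 and Sec24d, which carried the other motifs. All are printed 5′ to 3′ on the strand of the gene, with the letters of a motif match in capitals.
Hspa5: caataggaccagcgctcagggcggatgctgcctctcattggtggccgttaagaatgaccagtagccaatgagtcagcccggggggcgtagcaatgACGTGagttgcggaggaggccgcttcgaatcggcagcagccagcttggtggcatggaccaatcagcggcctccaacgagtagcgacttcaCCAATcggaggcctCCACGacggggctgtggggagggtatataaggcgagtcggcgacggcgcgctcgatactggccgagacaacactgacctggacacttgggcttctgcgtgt
Pdia6: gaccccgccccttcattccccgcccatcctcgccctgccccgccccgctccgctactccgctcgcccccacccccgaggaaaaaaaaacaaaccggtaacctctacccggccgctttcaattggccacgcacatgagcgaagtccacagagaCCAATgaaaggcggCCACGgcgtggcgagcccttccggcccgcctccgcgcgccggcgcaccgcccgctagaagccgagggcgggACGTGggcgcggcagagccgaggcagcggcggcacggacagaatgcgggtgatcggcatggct
Ero1a: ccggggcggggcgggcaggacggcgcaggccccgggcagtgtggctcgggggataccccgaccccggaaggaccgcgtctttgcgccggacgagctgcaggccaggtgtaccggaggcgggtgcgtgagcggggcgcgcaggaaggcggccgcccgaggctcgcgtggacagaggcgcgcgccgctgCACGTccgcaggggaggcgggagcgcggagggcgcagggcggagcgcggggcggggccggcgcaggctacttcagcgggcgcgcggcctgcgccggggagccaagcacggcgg
Ero1b: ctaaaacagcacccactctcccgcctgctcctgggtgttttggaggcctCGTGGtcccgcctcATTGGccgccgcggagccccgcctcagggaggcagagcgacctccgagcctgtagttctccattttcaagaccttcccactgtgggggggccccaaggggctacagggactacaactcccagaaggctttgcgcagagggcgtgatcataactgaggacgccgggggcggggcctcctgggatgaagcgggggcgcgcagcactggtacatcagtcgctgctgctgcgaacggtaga
Herpud1: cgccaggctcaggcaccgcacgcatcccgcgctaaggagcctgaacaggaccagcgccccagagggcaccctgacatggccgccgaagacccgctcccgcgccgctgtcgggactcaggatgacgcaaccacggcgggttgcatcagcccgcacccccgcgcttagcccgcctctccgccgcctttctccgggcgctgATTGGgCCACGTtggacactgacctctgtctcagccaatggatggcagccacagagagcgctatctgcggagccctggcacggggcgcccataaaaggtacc
Syvn1: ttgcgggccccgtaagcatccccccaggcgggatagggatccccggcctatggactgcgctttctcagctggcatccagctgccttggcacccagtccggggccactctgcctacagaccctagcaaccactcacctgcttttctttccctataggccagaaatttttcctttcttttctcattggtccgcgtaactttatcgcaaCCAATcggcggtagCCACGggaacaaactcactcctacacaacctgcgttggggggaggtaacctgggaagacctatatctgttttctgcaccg
Sec24d: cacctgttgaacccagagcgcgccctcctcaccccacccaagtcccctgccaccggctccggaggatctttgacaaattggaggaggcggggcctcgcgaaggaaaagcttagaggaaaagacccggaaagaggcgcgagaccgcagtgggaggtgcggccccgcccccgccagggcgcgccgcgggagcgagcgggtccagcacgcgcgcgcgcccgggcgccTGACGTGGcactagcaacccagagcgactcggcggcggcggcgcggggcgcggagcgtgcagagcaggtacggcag

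These windows lie at chr2:34771840-34772139 (plus strand) for Hspa5, chr12:17266339-17266638 (plus) for Pdia6, chr14:45318523-45318822 (minus) for Ero1a, chr13:12565633-12565932 (plus) for Ero1b, chr8:94386179-94386478 (plus) for Herpud1, chr19:6046326-6046625 (plus) for Syvn1 and chr3:123267246-123267545 (plus) for Sec24d. The Sec24d window lies inside its gene, which begins at base 123264801 of chr3. An ERSE was found in 10 of the 33 genes (30.3%), against 37 of 27025 genes with a window (0.137%). The 10 were Hspa5, Hsp90b1, Calr, Canx, Pdia6, Ero1b, Dnajc3, Creld2, Syvn1 and Derl3, and Hsp90b1 held 2 matches. In Hspa5 it spanned bases -65 to -47 from the gene start. ERSE-II was found in Dnajb11 and Herpud1, 2 of 33 genes (6.06%), against 0.0444% of all genes. The UPRE-like motif was found in Sec24d, 1 of 33 genes (3.03%), against 0.714% of all genes. The HRE core, a short motif, was found in 15 of 33 genes (45.5%), against 21.8% of all genes, and in Ero1a it lay on the minus strand relative to the gene at bases -63 to -59. The genes were listed for their part in the UPR, so the share with an ERSE describes the list. A match is a run of letters and was not tested as a binding site.

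**Figure D1:**
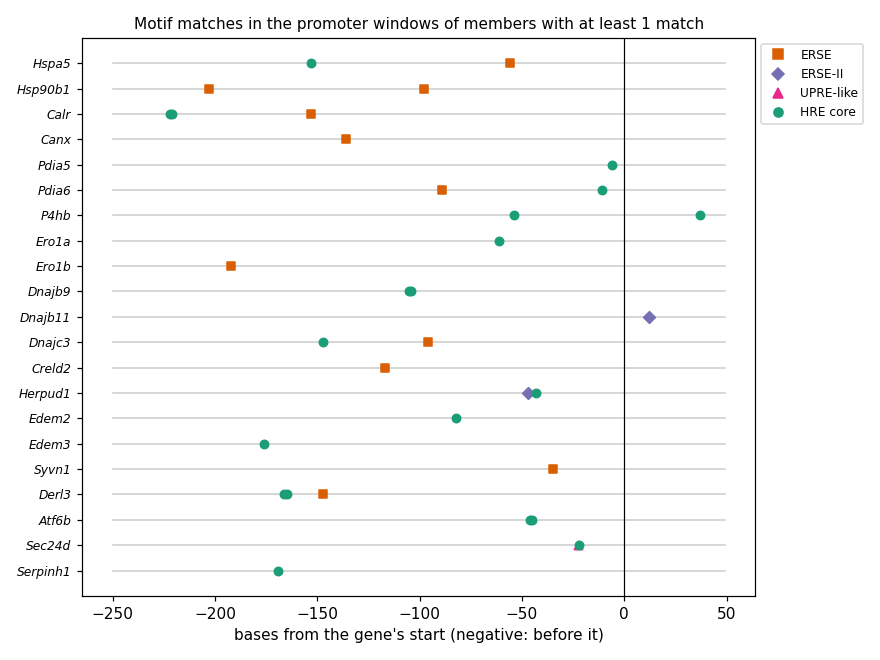
Motif matches in the promoter windows of the genes with at least 1 match, 1 gene per line, by distance in bases from the gene start (negative values lie before it). Squares mark ERSE, diamonds ERSE-II, triangles the UPRE-like motif and circles the HRE core. Of 33 genes with a window, 10 hold an ERSE and 15 an HRE core.

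Across all arrays, medians lay between 3.87 and 3.98 log2 units and the 95th percentile of 17 blank-like control probe sets between 3.28 and 3.54. Of the members, Derl3 was near that level, with arrays from 3.51 to 4.54. Crebbp, which encodes CBP, read 7.02 to 7.69 in dKO arrays, against 8.07 to 8.55 in WT arrays; whether its probe set covers the floxed region is unknown here, so it does not test the deletion; Ep300 was not analysed here. The mean of 10 fibroblast markers was 8.24 to 8.76 in dKO arrays, against 10.2 to 10.3 in WT arrays; markers of epithelium averaged 4.36 to 4.98 in dKO arrays, against 5.42 to 5.94 in WT arrays, and those of macrophages 4.59 to 4.87 in dKO arrays, against 4.13 to 4.65 in WT arrays. Macrophage markers went different ways between genotypes. Cd68 and Cd14 were called higher in dKO lines in each treatment and Csf1r lower. Adgre1 was called lower under DP alone, and Ptprc was near the blanks. Of the epithelial markers, Krt8, Krt18 and Krt19 were called lower in each treatment and Epcam in ethanol alone, while Cdh1 was not called. Krt19 also rose with DP, by 1.43 in dKO lines and 2.01 in WT lines. Endothelial markers (3.22 to 3.40 in dKO arrays and 3.33 to 3.55 in WT arrays) and markers of secretory cells (3.20 to 3.48 in dKO arrays and 3.31 to 3.54 in WT arrays) lay near the blanks, and the part of these markers in the results was not tested. Sex-linked genes separated the genotypes, with Xist at 3.94 to 5.32 in dKO arrays, against 10.3 to 10.7 in WT arrays, and the Y-linked Eif2s3y at 7.08 to 8.93 in dKO arrays, against 2.49 to 3.29 in WT arrays. Genotype and embryo sex therefore cannot be told apart in any genotype comparison. Ethanol arrays of dKO line 1 and WT line 5 stood apart from the other ethanol arrays of their genotypes, and the calls that change without them are given.

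The first comparison asked which of these genes responded to 3 h of DP. Ero1a, the thiol oxidase that reoxidises protein disulfide isomerase and passes electrons to oxygen, rose in both genotypes, and no other member was called in either. This made 1 of 39 members called with DP in dKO lines, where 1.5% of all genes were called (256 of 17097), and 1 of 39 in WT lines, where 4.73% were called (808 of 17097). Of all genes, 1.01% were called higher with DP in dKO lines and 3.05% in WT lines. Called means an adjusted p under 0.05 in limma over all genes, and all levels and differences of a single gene are log2 values of its probe set. Values per array are given in the order of lines 1, 5 and 6 for dKO and 3, 4 and 5 for WT. The median difference of the members was -0.07 in dKO lines (all genes, -0.05) and 0.02 in WT lines (all genes, -0.03).

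Ero1a read 11.04, 10.95 and 11.16 with DP, against 8.76, 9.54 and 9.43 with ethanol, in dKO lines. In WT lines, Ero1a read 11.54, 11.56 and 11.55 with DP, against 9.08, 9.23 and 8.63 with ethanol. The DP arrays lay above the ethanol arrays of their genotype without overlap. The difference was 1.81 ± 0.19 (SE, adjusted p = 0.000142) in dKO lines and 2.57 ± 0.19 (SE, adjusted p = 2.23e-06) in WT lines, or 3.5-fold and 5.9-fold on the linear scale. Per line, DP minus ethanol was 2.28, 1.41 and 1.73 in dKO lines 1, 5 and 6, against 2.46, 2.34 and 2.92 in WT lines 3, 4 and 5. Every WT line moved further than every dKO line. The difference between the responses was -0.77 ± 0.27 (SE, adjusted p = 0.547), short of the threshold over all genes. It was past the threshold without the 2 ethanol arrays that stood apart (-0.83, adjusted p = 0.0152) and with array weights (-0.81, adjusted p = 0.0203). Over the other alternatives its adjusted p ran from 0.0581 to 0.876. The other 2 probe sets of Ero1a had DP differences of 1.35 and 1.80 in dKO lines, against 1.54 and 3.19 in WT lines. Ero1a was the 1 member called with DP among all 39, and so also among the 15 with an HRE core in the window. That count carries no information on the motif. Of all genes with a window 21.8% held the core, and of all genes 1.5% were called in dKO lines and 4.73% in WT lines.

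**Figure D2:**
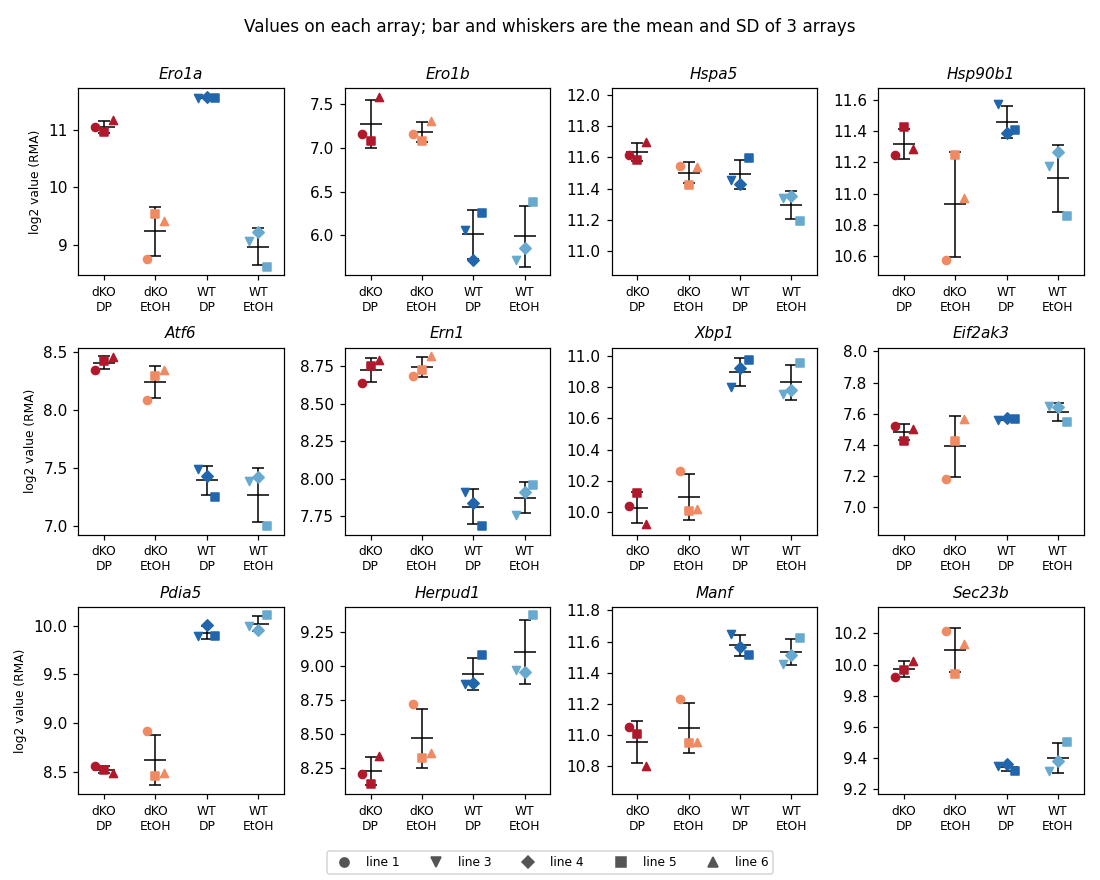
Log2 RMA values of 12 of the genes on each array, in the order dKO with DP, dKO with ethanol, WT with DP, WT with ethanol, with marker shapes for the MEF lines and bars for the mean and SD of 3 arrays. Axes differ between panels and do not start at 0. Ero1a lies between 10.95 and 11.56 on the DP arrays and between 8.63 and 9.54 on the ethanol arrays.

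The chaperone genes showed no called response to DP. Hspa5 read 11.62, 11.59 and 11.70 with DP, against 11.54, 11.42 and 11.54 with ethanol, in dKO lines. In WT lines, Hspa5 read 11.45, 11.43 and 11.60 with DP, against 11.34, 11.35 and 11.19 with ethanol. The DP arrays of this BiP gene lay above the ethanol arrays in each genotype, by 0.13 ± 0.09 (SE, adjusted p = 0.52) in dKO lines and 0.20 ± 0.09 (SE, adjusted p = 0.318) in WT lines. The 95% intervals ran from -0.07 to 0.33 in dKO lines and from 0.00 to 0.39 in WT lines, so a doubling lies outside both. Hsp90b1 read 11.24, 11.43 and 11.29 with DP, against 10.57, 11.25 and 10.97 with ethanol, in dKO lines. In WT lines, Hsp90b1 read 11.58, 11.39 and 11.41 with DP, against 11.18, 11.27 and 10.86 with ethanol. Hsp90b1, which encodes the ER form of HSP90 (GRP94), differed by 0.39 ± 0.16 (SE, adjusted p = 0.302) in dKO lines and 0.36 ± 0.16 (SE, adjusted p = 0.297) in WT lines. Its lowest readings were the ethanol arrays that stood apart, dKO line 1 and WT line 5. Calr read 11.92, 11.90 and 11.99 with DP, against 12.07, 11.91 and 11.96 with ethanol, in dKO lines. In WT lines, Calr read 12.03, 11.91 and 12.12 with DP, against 11.86, 11.91 and 12.11 with ethanol. Calreticulin, a lectin chaperone that holds glycoproteins, overlapped between treatments in both genotypes, with differences of -0.04 ± 0.10 (SE, adjusted p = 0.878) in dKO lines and 0.06 ± 0.10 (SE, adjusted p = 0.835) in WT lines.

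Dnajb9 read 9.23, 9.21 and 9.31 with DP, against 8.66, 9.12 and 9.03 with ethanol, in dKO lines. In WT lines, Dnajb9 read 9.14, 9.13 and 9.16 with DP, against 8.87, 8.90 and 8.64 with ethanol. Dnajb9 encodes a BiP cochaperone (ERdj4) whose mRNA is an established target of spliced Xbp1. Its DP arrays lay above its ethanol arrays in both genotypes, by 0.31 ± 0.12 (SE, adjusted p = 0.282) in dKO lines and 0.34 ± 0.12 (SE, adjusted p = 0.171) in WT lines, short of the threshold. Sdf2l1 read 8.22, 8.28 and 8.07 with DP, against 8.63, 8.11 and 8.33 with ethanol, in dKO lines. In WT lines, Sdf2l1 read 8.41, 8.56 and 8.53 with DP, against 8.32, 8.34 and 8.63 with ethanol. Sdf2l1, a luminal partner of BiP, overlapped between treatments in both genotypes, with -0.16 ± 0.14 (SE, adjusted p = 0.596) in dKO lines and 0.07 ± 0.14 (SE, adjusted p = 0.878) in WT lines.

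The 5 UPR sensors and factors likewise had no call with DP in limma, with an unadjusted p under 0.05 for 0 in dKO lines and 0 in WT lines. Xbp1 differed by -0.07 ± 0.10 (SE, adjusted p = 0.808) in dKO lines and 0.07 ± 0.10 (SE, adjusted p = 0.837) in WT lines. These probe sets report the amount of mRNA, and splicing of Xbp1 was not measured. Atf6 differed by 0.17 ± 0.12 (SE, adjusted p = 0.546) and 0.12 ± 0.12 (SE, adjusted p = 0.729) in the same order, Ern1 by -0.02 and -0.06, Atf6b by -0.20 and -0.24, and Eif2ak3 by 0.09 and -0.05. Herpud1, which recruits the ERAD ligase and is raised by ER stress, was -0.24 in dKO lines (adjusted p = 0.436) and -0.16 in WT lines (adjusted p = 0.672). Manf, a secreted protein retained by BiP, was -0.09 in dKO lines and 0.04 in WT lines. Serpinh1, the collagen chaperone HSP47, was -0.07 in dKO lines and -0.02 in WT lines.

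Leaving Ero1a aside, the other 38 members ran from -0.33 (Edem2) to 0.47 (Hspa13) in dKO lines and from -0.24 (Atf6b) to 0.41 (Pdia3, adjusted p = 0.0797) in WT lines. The 95% interval stayed within 1 log2 unit of 0 for 37 of the 38 in dKO lines and for all 38 in WT lines. Unadjusted p was under 0.05 for 4 of the 39 members in dKO lines (14.1% of all genes) and for 6 in WT lines (15.2% of all genes). Shifts were also counted by direction alone over the 6 lines. Hspa5, Hsp90b1, Canx, P4hb, Ero1a, Dnajb9 and Atf6 read higher with DP in each of the 6 lines, 7 of 39 members (17.9%), against 5.59% of all genes. The second probe set of Atf6 differed by -0.10 in dKO lines and 0.07 in WT lines. Herpud1, Sel1l, Syvn1, Derl1 and Atf6b read lower with DP in each of the 6 lines, 5 of 39 (12.8%), near the share of all genes (12.2%). Both counts include the lines whose ethanol arrays stood apart. By overlap alone, the 3 DP arrays lay above the 3 ethanol arrays for 7 members in dKO lines (17.9%; all genes, 6.32%) and for 7 in WT lines (17.9%; all genes, 8.97%). They lay below for 3 members in dKO lines (7.69%; all genes, 14.4%) and for 2 in WT lines (5.13%; all genes, 13.6%). In either direction the shares were 25.6% in dKO lines (all genes, 20.7%) and 23.1% in WT lines (all genes, 22.6%). None of the 10 genes with an ERSE was called with DP by limma in either genotype; an unadjusted p under 0.05 was found for 1 of them in dKO lines and 2 in WT lines.

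**Figure D3:**
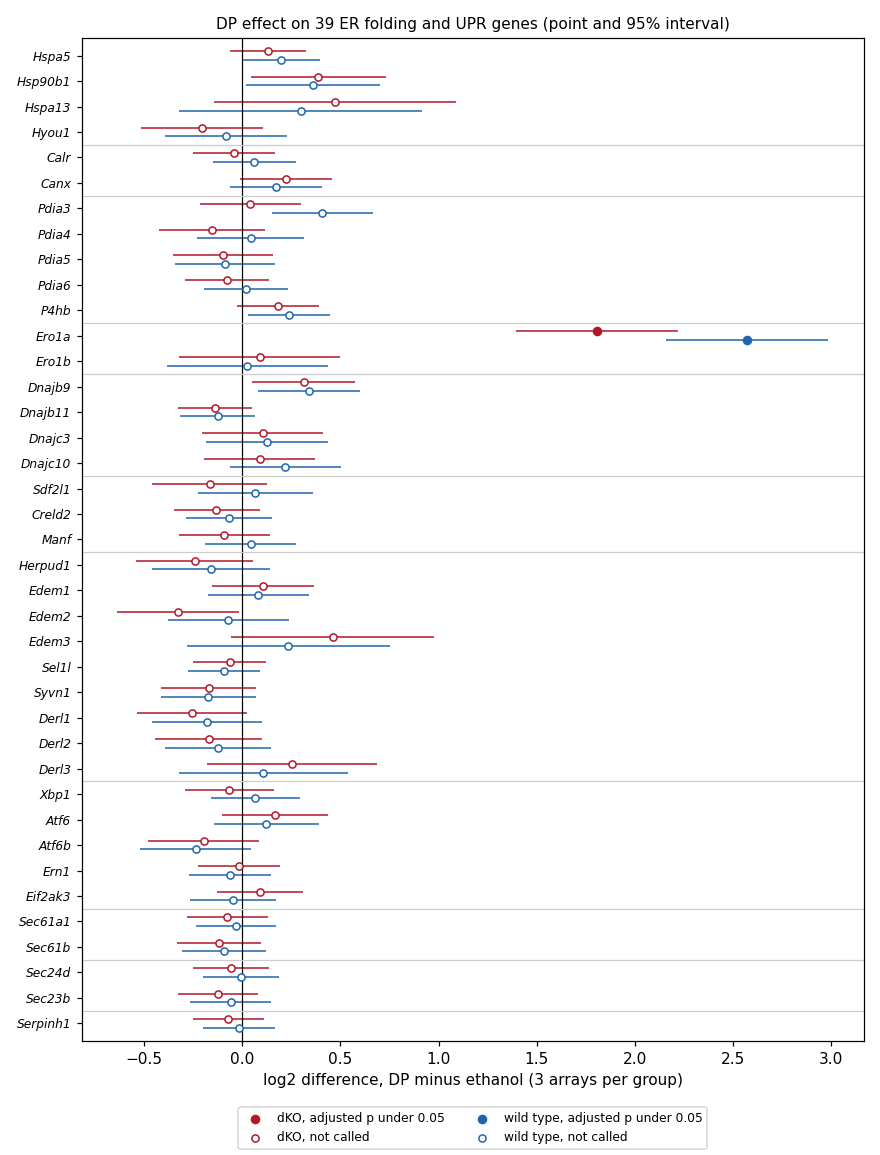
DP minus ethanol in log2 units for the 39 genes, grouped by role, with 95% intervals from limma, dKO in red above WT in blue. Filled points passed the threshold. Ero1a stands alone at 1.81 in dKO lines and 2.57 in WT lines.

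Whether the response to DP differed between genotypes was tested as the difference of the 2 effects. None of the 39 members was called in limma, where 0.562% of all genes were called (96 of 17097), and 2 had an unadjusted p under 0.05 (Ero1a and Pdia3; 5.92% of all genes). Pdia3, a glycoprotein disulfide isomerase, differed by -0.37 ± 0.17 (SE, adjusted p = 0.828), from a probe set at a mean of only 5.80. The 38 members other than Ero1a ran from -0.37 to 0.23 in this difference.

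The 2 ethanol arrays that stood apart deviated across all genes, and the shares of the members that deviated with them were near or somewhat above those of all genes. Against the other ethanol arrays of their genotype, both read lower by at least 0.25 for Hsp90b1, Hspa13, Ero1a, Dnajc3 and Edem3, 5 of 39 members (12.8%; all genes, 11.5%). Both read higher by at least 0.25 for Hyou1, Sdf2l1, Herpud1, Edem2, Syvn1, Derl1 and Derl3, 7 of 39 (17.9%; all genes, 12%). The largest was Hspa13, an Hsp70 relative of microsomes, at -1.10 on the dKO line 1 array and -0.92 on the WT line 5 array. Both arrays deviated in the same direction for 33 of 39 members (84.6%; all genes, 72.5%). Without them, P4hb, the founding disulfide isomerase and a subunit of collagen prolyl hydroxylase, was also called with DP in WT lines (0.32, adjusted p = 0.0396), and 1 member was called in dKO lines. Without the dKO line 1 ethanol array alone, Dnajb9 was called in WT lines (0.34, adjusted p = 0.0494). What sets these arrays apart was not tested.

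**Figure D4:**
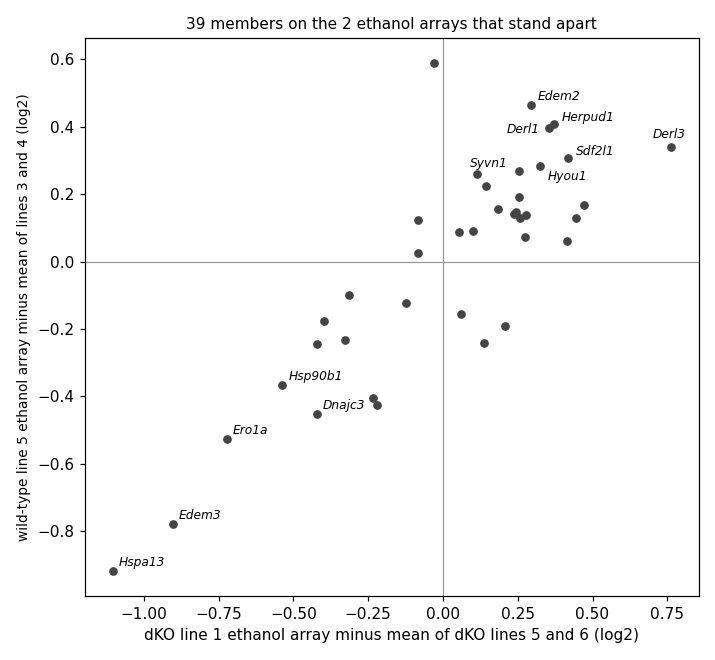
Deviation of 2 ethanol arrays from the other 2 ethanol arrays of their genotype, in log2 units, for the 39 genes: dKO line 1 on the horizontal axis and WT line 5 on the vertical axis. Named genes deviated by at least 0.25 in the same direction on both; Hspa13, Edem3 and Ero1a are farthest down.

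The second comparison set dKO against WT lines within each treatment, asking how these genes differ in cells labelled CBP/p300 null. Sensor genes Atf6, Ern1 and Atf6b, the oxidase Ero1b, the ERAD ligase pair Sel1l and Syvn1, and Sec23b were higher in dKO lines, while Xbp1, the isomerases Pdia4, Pdia5 and Pdia6, Manf, Herpud1, Sec61b, Sec24d and Serpinh1 were lower. Under DP, 19 of 39 members were called (48.7%; all genes, 35.4%), 8 higher (all genes, 18.5%) and 11 lower (all genes, 16.9%). In ethanol, 17 of 39 were called (43.6%; all genes, 33.6%), 8 higher (all genes, 19.5%) and 9 lower (all genes, 14.1%). The median difference was -0.14 under DP and -0.08 in ethanol, against -0.01 for all genes in each treatment. The shares of all genes given here take bright and dim genes together. Without the dimmest 40% of genes, Derl3 among them, 21 members were called under DP, beside 5599 of 10258 genes. In ethanol 18 members were then called, beside 5445 of 10258 genes. Among these brighter genes the share of members called was close to that of all genes under DP and below it in ethanol. The higher shares of members given above were thus not seen among brighter genes. The counts of separation and overlap below were not matched for brightness. The 2 treatments used different arrays of the same 6 lines, so they are not independent, and both genotype comparisons share arrays with the DP comparisons, so calls were not matched between the 2 kinds. There were 16 members called in both, all in the same direction, which is 84.2% of the calls under DP and 94.1% of those in ethanol. Of the 39 members, 16 had all 6 dKO arrays on 1 side of all 6 WT arrays (41%; all genes, 25.6%). Of these, 7 lay above (17.9%; all genes, 14.2%) and 9 below (23.1%; all genes, 11.4%). They were the same 16 that were called in both treatments, and the calls and the separation rest on the same arrays. Of the called members, 3 reached a 2-fold difference in at least 1 treatment, namely Pdia5, Ero1b and Atf6. Counting overlap alone, 32 of 39 members separated the genotypes under DP (82.1%; all genes, 53.8%) and 19 of 39 in ethanol (48.7%; all genes, 40%). Without the 2 ethanol arrays that stood apart, 27 members were called under DP (7661 of all 17097 genes) and 24 in ethanol (6352 of all genes), and none of the calls made with them was lost. The added calls under DP were Hspa13, P4hb (adjusted p = 0.0255), Ero1a (0.000388), Sdf2l1 (0.0157), Edem1 (0.0162), Edem2 (0.0108), Derl1 (0.00255) and Derl3 (0.00401). Those in ethanol were Hspa13, Edem3, Ero1a (adjusted p = 0.0226), Dnajc10 (0.0182), Edem1 (0.0235), Derl1 (0.0425) and Sec61a1 (0.0116). Their differences under DP are those of the full set of arrays, since only the estimate of the spread changes there.

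**Figure D5:**
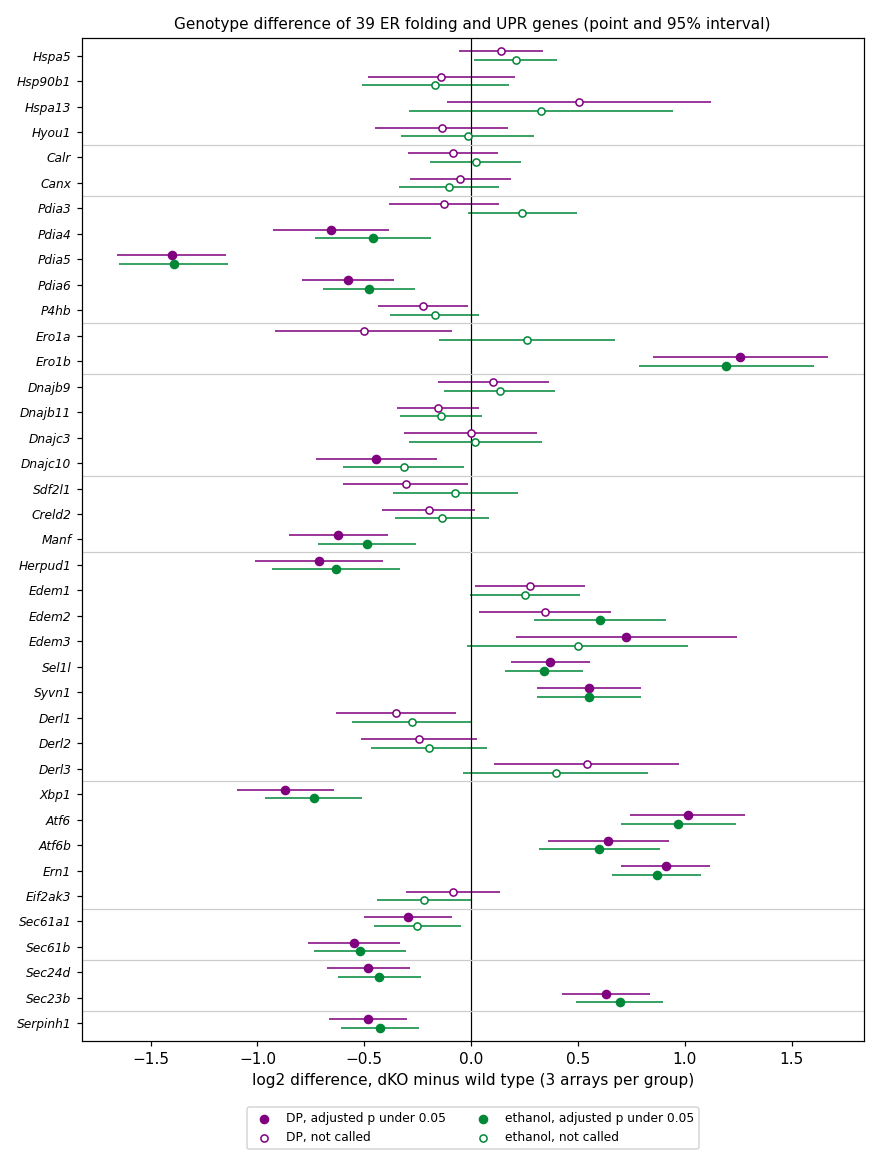
dKO minus WT in log2 units for the 39 genes, grouped by role, with 95% intervals from limma, under DP (purple, upper) and in ethanol (green, lower). Filled points passed the threshold. Pdia5 is farthest to the left at -1.40 under DP and -1.39 in ethanol, and Ero1b farthest to the right at 1.26 and 1.19.

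Of the 5 sensors and factors, 3 were higher and 1 lower in dKO lines in each treatment. The shares of all genes were 18.5% higher and 16.9% lower under DP, and 19.5% higher and 14.1% lower in ethanol. Under DP, Atf6 read 8.35, 8.43 and 8.46 in dKO lines, against 7.50, 7.43 and 7.26 in WT lines. In ethanol, Atf6 read 8.09, 8.29 and 8.35 in dKO lines, against 7.39, 7.42 and 7.00 in WT lines. Atf6 was higher on each of the dKO arrays than on any WT array. The dKO lines differed by 1.01 ± 0.12 (SE, adjusted p = 3.41e-05) under DP and 0.97 ± 0.12 (SE, adjusted p = 5.15e-05) in ethanol, and a second probe set of Atf6 differed by 0.67 and 0.85 in that order. Under DP, Ern1 read 8.63, 8.75 and 8.79 in dKO lines, against 7.91, 7.84 and 7.68 in WT lines. In ethanol, Ern1 read 8.69, 8.72 and 8.82 in dKO lines, against 7.76, 7.91 and 7.96 in WT lines. Ern1 was higher on each of the dKO arrays than on any WT array. Ern1, the IRE1 kinase and nuclease that splices Xbp1 mRNA, differed by 0.91 ± 0.10 (SE, adjusted p = 9.83e-06) under DP and 0.87 ± 0.10 (SE, adjusted p = 1.59e-05) in ethanol. The other 4 probe sets of Ern1 were dim (means of 2.95 to 4.31) and differed by -0.28 to 0.03 under DP and -0.12 to 0.10 in ethanol. The call was lost when all 5 were averaged (adjusted p = 0.361 under DP and 0.0882 in ethanol). Under DP, Atf6b read 7.05, 6.84 and 6.96 in dKO lines, against 6.28, 6.32 and 6.33 in WT lines. In ethanol, Atf6b read 7.46, 6.93 and 7.05 in dKO lines, against 6.59, 6.40 and 6.66 in WT lines. Atf6b was higher on each of the dKO arrays than on any WT array. Atf6b, a relative of Atf6 in the same membrane-bound family, differed by 0.64 ± 0.13 (SE, adjusted p = 0.00181) under DP and 0.60 ± 0.13 (SE, adjusted p = 0.00291) in ethanol.

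Xbp1, whose spliced mRNA encodes a transcription factor for chaperone, ERAD and ER lipid genes, went the other way. Under DP, Xbp1 read 10.04, 10.12 and 9.92 in dKO lines, against 10.80, 10.92 and 10.97 in WT lines. In ethanol, Xbp1 read 10.26, 10.00 and 10.02 in dKO lines, against 10.76, 10.78 and 10.96 in WT lines. Xbp1 was lower on each of the dKO arrays than on any WT array. Xbp1 differed by -0.87 ± 0.10 (SE, adjusted p = 3.02e-05) under DP and -0.74 ± 0.10 (SE, adjusted p = 0.000121) in ethanol, and all 4 of its probe sets were lower in dKO lines, at -0.94 to -0.87 under DP and -0.92 to -0.74 in ethanol. Under DP, Eif2ak3 read 7.52, 7.42 and 7.50 in dKO lines, against 7.56, 7.57 and 7.57 in WT lines. In ethanol, Eif2ak3 read 7.18, 7.43 and 7.56 in dKO lines, against 7.65, 7.64 and 7.55 in WT lines. Eif2ak3 was lower on every dKO array than on any WT array under DP, while the genotypes overlapped in ethanol. Eif2ak3 encodes PERK, the sensor that slows translation, and was not called, with -0.08 ± 0.10 (SE, adjusted p = 0.567) under DP and -0.22 ± 0.10 (SE, adjusted p = 0.117) in ethanol. In ethanol it was called with cyclic loess scaling (-0.43, adjusted p = 0.00834) and without the ethanol array of dKO line 6 (adjusted p = 0.0457).

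Among the 5 disulfide isomerases, 3 were lower in dKO lines in each treatment and 0 were higher (all genes lower, 16.9% under DP and 14.1% in ethanol). Under DP, Pdia5 read 8.57, 8.53 and 8.49 in dKO lines, against 9.89, 10.00 and 9.89 in WT lines. In ethanol, Pdia5 read 8.92, 8.46 and 8.49 in dKO lines, against 9.99, 9.96 and 10.10 in WT lines. Pdia5 was lower on each of the dKO arrays than on any WT array. Pdia5, an isomerase that acts on ATF6 in human cells, differed by -1.40 ± 0.12 (SE, adjusted p = 1.59e-06) under DP and -1.39 ± 0.12 (SE, adjusted p = 1.84e-06) in ethanol, which is 0.379 and 0.381 of the WT level on the linear scale. Under DP, Pdia4 read 9.51, 9.41 and 9.19 in dKO lines, against 9.92, 10.07 and 10.09 in WT lines. In ethanol, Pdia4 read 9.66, 9.40 and 9.51 in dKO lines, against 10.22, 9.87 and 9.86 in WT lines. Pdia4 was lower on each of the dKO arrays than on any WT array. Pdia4 (ERp72), a partner of BiP in folding complexes, differed by -0.65 ± 0.13 (SE, adjusted p = 0.00119) under DP and -0.46 ± 0.13 (SE, adjusted p = 0.0122) in ethanol. Its ethanol call was lost when dKO line 5 (adjusted p = 0.0504) or WT line 3 (adjusted p = 0.0569) was left out of the ethanol arrays. Under DP, Pdia6 read 10.04, 10.16 and 9.99 in dKO lines, against 10.63, 10.57 and 10.72 in WT lines. In ethanol, Pdia6 read 10.30, 10.08 and 10.04 in dKO lines, against 10.55, 10.59 and 10.72 in WT lines. Pdia6 was lower on each of the dKO arrays than on any WT array. Pdia6, an isomerase that works with BiP and has an ERSE at bases -98 to -80, differed by -0.58 ± 0.10 (SE, adjusted p = 0.000529) under DP and -0.48 ± 0.10 (SE, adjusted p = 0.00208) in ethanol. A second, dim probe set (mean of 3.69) differed by 0.01 and 0.31 in that order, and the ethanol call of Pdia6 was lost when both were averaged (adjusted p = 0.506). P4hb and Pdia3 were not called, with -0.23 and -0.13 under DP and -0.17 and 0.24 in ethanol.

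The 2 ER oxidases that recharge the isomerases did not move together. Under DP, Ero1b read 7.16, 7.08 and 7.58 in dKO lines, against 6.06, 5.71 and 6.26 in WT lines. In ethanol, Ero1b read 7.16, 7.08 and 7.30 in dKO lines, against 5.72, 5.86 and 6.38 in WT lines. Ero1b was higher on each of the dKO arrays than on any WT array. Ero1b, the oxidase best known from pancreas, was higher by 1.26 ± 0.19 (SE, adjusted p = 0.000182) under DP and 1.19 ± 0.19 (SE, adjusted p = 0.000284) in ethanol. Its other 2 probe sets, with means of 2.77 and 3.37, lay at the level of the blanks. Ero1a was short of the threshold between genotypes, at -0.50 ± 0.19 (SE, adjusted p = 0.0568) under DP and 0.26 ± 0.19 (SE, adjusted p = 0.337) in ethanol. Under DP it was lower and called in 6 of 9 alternatives and in 3 of 12 fits that left out an array, with -0.98 (adjusted p = 3.82e-05) for the mean of its 3 probe sets. Its other 2 probe sets read lower in dKO lines under DP, at -1.25 and -1.17, while in ethanol they gave -1.06 and 0.22, so its genotype difference in ethanol depends on the probe set.

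Of the 9 ERAD genes, 3 were higher and 1 lower in dKO lines in each treatment. Over all genes, 18.5% were higher and 16.9% lower under DP, and 19.5% higher and 14.1% lower in ethanol. Under DP, Syvn1 read 9.29, 9.23 and 9.45 in dKO lines, against 8.81, 8.73 and 8.78 in WT lines. In ethanol, Syvn1 read 9.66, 9.33 and 9.49 in dKO lines, against 8.87, 8.84 and 9.12 in WT lines. Syvn1 was higher on each of the dKO arrays than on any WT array. Syvn1 encodes the HRD1 ubiquitin ligase, whose window holds an ERSE at bases -44 to -26, and differed by 0.55 ± 0.11 (SE, adjusted p = 0.00175) under DP and 0.55 ± 0.11 (SE, adjusted p = 0.00179) in ethanol. Under DP, Sel1l read 9.52, 9.53 and 9.59 in dKO lines, against 9.13, 9.18 and 9.21 in WT lines. In ethanol, Sel1l read 9.56, 9.62 and 9.66 in dKO lines, against 9.16, 9.36 and 9.29 in WT lines. Sel1l was higher on each of the dKO arrays than on any WT array. Sel1l, the adaptor that stabilises HRD1, differed by 0.37 ± 0.08 (SE, adjusted p = 0.00421) under DP and 0.34 ± 0.08 (SE, adjusted p = 0.0071) in ethanol. Its ethanol call was lost with cyclic loess scaling (adjusted p = 0.0622) and with the mean of its 5 probe sets (adjusted p = 0.078). Under DP, Herpud1 read 8.21, 8.14 and 8.34 in dKO lines, against 8.87, 8.87 and 9.08 in WT lines. In ethanol, Herpud1 read 8.72, 8.33 and 8.36 in dKO lines, against 8.97, 8.96 and 9.37 in WT lines. Herpud1 was lower on each of the dKO arrays than on any WT array. Herpud1, with an ERSE-II at bases -52 to -42, was lower, at -0.71 ± 0.14 (SE, adjusted p = 0.0013) under DP and -0.63 ± 0.14 (SE, adjusted p = 0.00305) in ethanol, and its second probe set gave -0.70 and -0.56 in that order.

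Edem2 and Edem3, which encode mannosidase-like proteins that mark glycoproteins for ERAD, were each called in 1 treatment. Under DP, Edem2 read 7.74, 7.79 and 7.84 in dKO lines, against 7.37, 7.58 and 7.39 in WT lines. In ethanol, Edem2 read 8.31, 7.90 and 8.13 in dKO lines, against 7.28, 7.45 and 7.83 in WT lines. Within each treatment Edem2 was higher on every dKO array than on any WT array. Edem2 differed by 0.35 ± 0.14 (SE, adjusted p = 0.0794) under DP and 0.60 ± 0.14 (SE, adjusted p = 0.00511) in ethanol. Under DP, Edem3 read 9.93, 9.91 and 9.93 in dKO lines, against 9.22, 9.22 and 9.16 in WT lines. In ethanol, Edem3 read 8.86, 9.80 and 9.73 in dKO lines, against 9.25, 9.20 and 8.45 in WT lines. Edem3 was higher on every dKO array than on any WT array under DP, while the genotypes overlapped in ethanol. Edem3 differed by 0.73 ± 0.24 (SE, adjusted p = 0.0309) under DP and 0.50 ± 0.24 (SE, adjusted p = 0.136) in ethanol. In ethanol its lowest arrays in each genotype were dKO line 1 and WT line 5, and without this pair Edem3 was called in ethanol too (0.54, adjusted p = 0.00039). The call under DP was lost when any 1 of the 6 DP arrays was left out (adjusted p from 0.0676 to 0.0832) and with cyclic loess scaling (adjusted p = 0.0811). The remaining 4 ERAD genes Edem1, Derl1, Derl2 and Derl3 ran from -0.35 (Derl1) to 0.54 (Derl3) under DP and from -0.28 to 0.39 in ethanol, short of the threshold. Under DP, Derl1 was called in 5 of 9 alternatives and Derl3 in 6 of 8. Of the 3 probe sets of Derl1, the dimmest read higher in dKO lines (0.145 under DP and 0.148 in ethanol) and the others lower. The second probe set of Derl2 read higher in dKO lines (0.76 under DP and 0.87 in ethanol), against lower for the brightest. Edem1 was higher and called without the 2 arrays that stood apart, while its second probe set read lower in dKO lines (-0.59 under DP and -0.52 in ethanol).

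In the group of secreted and luminal stress proteins, Manf was lower. Under DP, Manf read 11.05, 11.01 and 10.80 in dKO lines, against 11.65, 11.56 and 11.52 in WT lines. In ethanol, Manf read 11.23, 10.95 and 10.96 in dKO lines, against 11.46, 11.52 and 11.62 in WT lines. Manf was lower on each of the dKO arrays than on any WT array. Manf differed by -0.62 ± 0.11 (SE, adjusted p = 0.000508) under DP and -0.49 ± 0.11 (SE, adjusted p = 0.00305) in ethanol. Under DP, Sdf2l1 was lower on every dKO array than on any WT array, and in ethanol the genotypes overlapped. Sdf2l1 was not called (-0.31 under DP, adjusted p = 0.0997, and -0.07 in ethanol, adjusted p = 0.725), nor was Creld2, a stress protein with an ERSE (-0.20 under DP and -0.14 in ethanol).

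Among the J proteins, cochaperones that drive Hsp70 ATP use, only Dnajc10 was called, under DP. Under DP, Dnajc10 read 9.30, 9.22 and 8.98 in dKO lines, against 9.62, 9.67 and 9.54 in WT lines. In ethanol, Dnajc10 read 8.93, 9.15 and 9.15 in dKO lines, against 9.53, 9.54 and 9.11 in WT lines. Dnajc10 was lower on every dKO array than on any WT array under DP, while the genotypes overlapped in ethanol. Dnajc10 (ERdj5), a disulfide reductase of ERAD, differed by -0.44 ± 0.13 (SE, adjusted p = 0.0179) under DP and -0.32 ± 0.13 (SE, adjusted p = 0.0853) in ethanol. The call was lost without the DP array of dKO line 6 (adjusted p = 0.083) or of WT line 4 (adjusted p = 0.0623), and with the mean of its 3 probe sets. Dnajb9, Dnajb11 and Dnajc3 ran from -0.15 to 0.10 under DP and from -0.14 to 0.13 in ethanol, none called. The 5 probe sets of Dnajc3 ran from -0.003 to 0.89 under DP and from 0.02 to 0.71 in ethanol. The brightest, used here, was the lowest in each treatment, and the next brightest gave 0.69 and 0.42 in that order. The genotype difference of Dnajc3 thus depends on the probe set.

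The Hsp70, Hsp90 and lectin chaperones had no genotype call in limma among 6 members. An unadjusted p under 0.05 was found for 0 of them under DP (all genes, 43.2%) and 1 in ethanol (all genes, 41%). Hspa5 was 0.14 ± 0.09 (SE, adjusted p = 0.268) under DP and 0.21 ± 0.09 (SE, adjusted p = 0.0998) in ethanol, where its dKO arrays lay just above the WT arrays. Hsp90b1 was -0.14 and -0.17 in the same order, Calr -0.08 and 0.02, and Canx -0.05 and -0.10. Second probe sets gave -0.29 and -0.43 for Hsp90b1 and -0.388 and -0.395 for Canx in that order. Those of Hspa5 gave 0.001 and 0.127, and those of Calr -0.13 and 0.02. The size of the genotype difference of Hsp90b1 and Canx thus depends on the probe set. The interval of the Hspa5 difference ran from -0.06 to 0.33 under DP and from 0.01 to 0.40 in ethanol. Hspa13 had the widest, -0.11 to 1.12 under DP and -0.29 to 0.94 in ethanol, and without the 2 arrays that stood apart it was called in each (0.51 under DP, adjusted p = 0.000282, and 0.39 in ethanol, adjusted p = 0.00732). Of the 10 genes with an ERSE, 2 were higher (Ero1b and Syvn1) and 1 lower (Pdia6) in each treatment. Of all genes, 35.4% were called in either direction under DP and 33.6% in ethanol, so this count is not above the share of all genes.

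Genes of entry into and exit from the ER were split. Under DP, Sec61b read 10.42, 10.46 and 10.28 in dKO lines, against 10.96, 10.94 and 10.92 in WT lines. In ethanol, Sec61b read 10.67, 10.48 and 10.38 in dKO lines, against 10.92, 11.04 and 11.12 in WT lines. Sec61b was lower on each of the dKO arrays than on any WT array. Sec61b, a small subunit of the translocation channel, was lower, at -0.55 ± 0.10 (SE, adjusted p = 0.00076) under DP and -0.52 ± 0.10 (SE, adjusted p = 0.00112) in ethanol. Under DP, Sec61a1 read 10.38, 10.33 and 10.39 in dKO lines, against 10.72, 10.62 and 10.65 in WT lines. In ethanol, Sec61a1 read 10.63, 10.32 and 10.38 in dKO lines, against 10.71, 10.64 and 10.74 in WT lines. Within each treatment Sec61a1 was lower on every dKO array than on any WT array. Sec61a1, the pore itself, was -0.30 ± 0.09 (SE, adjusted p = 0.0266) under DP and -0.25 ± 0.09 (SE, adjusted p = 0.0569) in ethanol, and the DP call was lost when any 1 of the 6 DP arrays was left out and with median centring (adjusted p = 0.135). In ethanol Sec61a1 was called in 6 of 9 alternatives, with adjusted p from 0.00402 to 0.578 over the 9. Under DP, Sec24d read 9.28, 9.42 and 9.31 in dKO lines, against 9.71, 9.86 and 9.89 in WT lines. In ethanol, Sec24d read 9.43, 9.39 and 9.36 in dKO lines, against 9.73, 9.86 and 9.88 in WT lines. Sec24d was lower on each of the dKO arrays than on any WT array. Sec24d, a cargo adaptor of the COPII coat whose loss impairs collagen export in fish, was lower, at -0.48 ± 0.09 (SE, adjusted p = 0.000919) under DP and -0.43 ± 0.09 (SE, adjusted p = 0.00208) in ethanol. Under DP, Sec23b read 9.92, 9.97 and 10.02 in dKO lines, against 9.35, 9.36 and 9.31 in WT lines. In ethanol, Sec23b read 10.22, 9.94 and 10.13 in dKO lines, against 9.32, 9.38 and 9.51 in WT lines. Sec23b was higher on each of the dKO arrays than on any WT array. Sec23b, its inner coat partner, was higher by 0.63 ± 0.09 (SE, adjusted p = 0.000182) under DP and 0.69 ± 0.09 (SE, adjusted p = 8.48e-05) in ethanol. The 2 COPII members thus separated the genotypes in opposite directions, without overlap in either case.

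Under DP, Serpinh1 read 11.97, 12.02 and 11.95 in dKO lines, against 12.41, 12.47 and 12.50 in WT lines. In ethanol, Serpinh1 read 12.12, 12.05 and 11.99 in dKO lines, against 12.52, 12.38 and 12.54 in WT lines. Serpinh1 was lower on each of the dKO arrays than on any WT array. Serpinh1, which binds collagen triple helices in the ER, was lower, at -0.48 ± 0.08 (SE, adjusted p = 0.00059) under DP and -0.43 ± 0.08 (SE, adjusted p = 0.00147) in ethanol, and its second probe set gave -0.50 and -0.44 in that order. Beside it, all 10 fibroblast markers, 3 of them collagen genes, were lower and called in dKO lines in each treatment. Their part in the member's difference was not tested. In whole-culture RNA, fewer cells of a kind and less RNA per cell cannot be told apart.

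Other measures moved with genotype as well. The beta-actin 3′ minus 5′ difference, a sign of RNA integrity or of labelling, was 0.48 to 0.60 in dKO arrays under DP and 0.40 to 0.45 in dKO arrays in ethanol, against 0.28 to 0.38 in WT arrays under DP and 0.23 to 0.25 in WT arrays in ethanol. With it as a covariate, 1 member, Pdia5, was still called in each treatment. All called members kept their sign, the differences were multiplied by a median of 0.767 under DP and 0.749 in ethanol, and their standard errors by 2.27 and 2.20. Every dKO array lay above every WT array in this measure, so it and genotype cannot be told apart here. Within each genotype every DP array lay above every ethanol array in it, so it and DP cannot be told apart either. The Gapdh 3′ minus 5′ difference followed this pattern only in part. It was 0.10 to 0.19 in dKO arrays under DP and 0.19 to 0.21 in dKO arrays in ethanol. In WT arrays it was 0.04 to 0.17 under DP and -0.03 to 0.15 in ethanol. For Gapdh the genotypes overlapped under DP but not in ethanol, and dKO arrays were not higher with DP. With the beta-actin covariate, Ero1a was still the 1 member called with DP in each genotype. Calls with DP over all genes were then 86 in dKO lines (256 without it) and 350 in WT lines (808 without it).

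Further genes of the same pathways were read from 8 lists of 134 genes, of which 125 were measured. Their counts stand against the shares of all genes, which between genotypes were 18.5% higher and 16.9% lower under DP, and 19.5% higher and 14.1% lower in ethanol. In the PERK and CHOP branch (11 measured), 1 gene was higher with DP in dKO lines (all genes, 1.01%). In WT lines 2 were higher with DP (all genes, 3.05%) and 1 lower (all genes, 1.67%). Stc2, a secreted glycoprotein raised by PERK signalling and by HIF, rose by 3.01 ± 0.10 (SE, adjusted p = 2.39e-09) in dKO lines and 3.35 ± 0.10 (SE, adjusted p = 8.51e-10) in WT lines. Between genotypes Stc2 was lower in dKO lines, at -1.06 ± 0.10 (SE, adjusted p = 3.99e-06) under DP and -0.71 ± 0.10 (SE, adjusted p = 0.000107) in ethanol. Chac1, a glutathione-degrading enzyme downstream of ATF4, fell with DP in WT lines, at -1.19 ± 0.17 (SE, adjusted p = 0.000702), and in dKO lines read -0.53 ± 0.17 (SE, adjusted p = 0.181). Atf3, a stress-inducible transcription factor, rose with DP in WT lines by 0.59 ± 0.15 (SE, adjusted p = 0.0482). Ddit3 (CHOP), the proapoptotic end point of this branch, was 0.03 in dKO lines (adjusted p = 0.919) and 0.06 in WT lines (adjusted p = 0.848).

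Between genotypes the PERK and CHOP branch included Atf3, higher in dKO lines by 3.89 ± 0.15 (SE, adjusted p = 6.16e-09) under DP and 4.36 ± 0.15 (SE, adjusted p = 3.04e-09) in ethanol. In this branch 4 genes were higher and 3 lower in dKO lines under DP, and 3 higher and 4 lower in ethanol. Trib3, a pseudokinase induced by CHOP, was lower, at -1.95 under DP and -1.81 in ethanol, while Ppp1r15a, which reverses the PERK block of translation, was higher by 0.60 and 0.67, and Ddit3 by 0.37 and 0.40. The list of sensor processing and ER-bound bZIP factors (11 measured) had 4 higher and 1 lower in each treatment. The 1 lower was Creb3l1, an ATF6-like factor needed for collagen synthesis in bone (-1.81 under DP and -1.83 in ethanol), while Creb3, a relative, was higher (0.74 and 0.60), as were Nucb1 (0.71 and 0.70) and Tmbim6 (0.47 and 0.49).

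None of the members of the lists for oligosaccharyltransferase and glucose trimming, translocon partners, other ERAD genes, other folding enzymes, COPII and ER exit, or sensor processing was called with DP in limma, while 4 of 103 had an unadjusted p under 0.05 in dKO lines (all genes, 14.1%) and 10 of 103 in WT lines (all genes, 15.2%). Between genotypes, 18.5% of all genes were called higher and 16.9% lower under DP, and 19.5% and 14.1% in ethanol. The calls of these lists between genotypes were as follows. The 16 other ERAD genes had 6 higher and 1 lower under DP, and 5 higher and 1 lower in ethanol, with Ngly1, which strips glycans from exported proteins, at 0.82 and 0.91 and the ubiquitin ligase Rnf5 at 0.72 and 0.54. The 20 other folding enzymes had 3 higher and 9 lower under DP, and 3 higher and 8 lower in ethanol, with the prolyl isomerase Fkbp11 at -1.52 and -1.57, the sulfhydryl oxidase Qsox1 at -0.92 and -0.92, and the thioredoxin-like Tmx4 at 1.12 and 1.29 and Tmx2 at 0.91 and 1.02. The 19 COPII and ER exit genes had 2 higher and 10 lower under DP, and 3 higher and 9 lower in ethanol, among them the KDEL receptor Kdelr3 at -1.24 and -1.33 the outer coat gene Sec31a at -0.77 and -0.69, and Sec16b, of the exit-site scaffold family, at -1.39 and -1.82. The 19 translocon partners had 2 higher and 4 lower under DP, and 1 higher and 5 lower in ethanol, with Tram2, a collagen-linked channel partner, at -1.08 and -0.75 and the signal peptide peptidase H13 at -0.73 and -0.65. The 18 genes of glycan transfer and trimming had 1 higher and 4 lower under DP, and 2 higher and 4 lower in ethanol, with the subunit Ostc at -0.68 and -0.73.

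Collagen-modifying enzymes of the ER, most of them iron-dependent hydroxylases, also held calls with DP. Of 11 measured, 2 rose with DP in dKO lines (all genes, 1.01%) and 3 in WT lines (all genes, 3.05%). Plod2, a lysyl hydroxylase, rose by 1.22 ± 0.17 (SE, adjusted p = 0.00123) in dKO lines and 1.36 ± 0.17 (SE, adjusted p = 0.000232) in WT lines. P4ha2, the catalytic partner of the P4hb product, rose by 0.88 ± 0.11 (SE, adjusted p = 0.000734) in dKO lines and 0.48 ± 0.11 (SE, adjusted p = 0.0273) in WT lines. Plod1 rose in WT lines by 0.92 ± 0.15 (SE, adjusted p = 0.00221), and in dKO lines read 0.49 ± 0.15 (SE, adjusted p = 0.157). Between genotypes 8 were lower under DP and 7 in ethanol, and none was higher, with P4ha3 at -1.95 and -2.04 and the galactosyltransferase Colgalt1 at -1.22 and -1.01. None of the 125 genes of these lists was called for a difference between the DP responses in limma, and 4 had an unadjusted p under 0.05.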

How the data were processed

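Per the submitters' processing notes, the authors used Affymetrix Expression Console 1.1 and RMA, which corrects background, normalises across arrays and combines the probes of a set, and deposited the log2 values. No scanner intensities were used, so the number of arrays limits the precision. Of 45141 probe sets, 104 controls were set aside and 28898 carried 1 gene symbol, and each of 17097 genes was read from its brightest one.

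Tests used limma 3.58.1 in R 4.3.3 (lmFit, eBayes, 1 mean per group over 12 arrays, no block), with Benjamini-Hochberg adjustment over all genes of a contrast and a threshold of 0.05, and were first tested on simulated data. Replicates are separately numbered MEF lines per the labels. The labels also pair the treatments by line: deviations of a line's DP and ethanol arrays from their group means had correlations of 0.04 to 0.36 for the dKO lines and 0.06 to 0.42 for the WT lines (8917 genes averaging 5 or more). Alternatives were the line as a block, the beta-actin covariate, array weights, an intensity trend, the mean over a gene's probe sets, scaling by cyclic loess or to a common median, dropping the dimmest 40% of genes, and dropping each array in turn or the 2 ethanol arrays that stood apart. Members, lists, markers, motifs and tests were chosen with earlier results of these data known. Values on every array are given for members called in at least 1 of 5 contrasts and for a fixed set (Hspa5, Hsp90b1, Calr, Xbp1, Atf6, Ern1, Eif2ak3, Dnajb9, Herpud1, Ero1a, Serpinh1, Sdf2l1 and Manf), and of other lists up to 4 called genes per contrast, of which the text names some. A gene named outside that rule was chosen after its values were seen. Tables and figures used Python 3.11.15, pandas 2.3.3, numpy 2.4.6 and matplotlib 3.10.9.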

Additional observations from a re-analysis of the deposited data

How the results depend on the processing

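With the MEF line as a replicate block, reflecting the pairing of treatments by line, the members called were 1 with DP in dKO lines, 1 with DP in WT lines, 19 between genotypes under DP, 17 between genotypes in ethanol and 0 for the difference of the DP responses, as without it, and no call changed. Array weights called 3 members with DP in dKO lines (Ero1a, Derl3 and, lower, Edem2), 2 in WT lines (with P4hb), 1 (Ero1a) for the difference, 27 between genotypes under DP and 25 in ethanol. Cyclic loess called 2 with DP in WT lines (with Pdia3, adjusted p = 0.0463), and between genotypes 8 higher and 17 lower under DP (8 and 11 as deposited) and 7 higher and 14 lower in ethanol (8 and 9 as deposited). Without the 2 ethanol arrays that stood apart, 2 were called with DP in WT lines, 1 for the difference, 27 between genotypes under DP and 24 in ethanol. With the beta-actin covariate 1 was called between genotypes in each treatment. Leaving out each array in turn gave 1 with DP in dKO lines throughout, 1 to 2 in WT lines (Dnajb9 without the ethanol array of dKO line 1, Pdia3 without the DP array of WT line 4), 16 to 24 between genotypes in each treatment and 0 for the difference. Ero1a stayed called with DP in both genotypes in every alternative run. Derl2 between genotypes in ethanol turned to 0.34 (adjusted p = 0.0448) with the mean of its probe sets, against -0.20, not called, with the brightest. The causes of these changes were not tested. Medians of all genes moved by under 0.1 with either scaling. Derl3 was not tested where the dimmest genes were dropped. Signals near the blanks limit Derl3 and the dim probe sets of Ern1 and Ero1b.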
